A study of Mus musculus with 6 samples.

Results

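The cadherin switch genes and the regulators of the epithelial-mesenchymal transition (EMT) were examined upon loss of PATZ1 in mouse embryonic stem cells (ESCs). The 9 genes were taken by symbol from the count files, which hold 23420 symbols each: the epithelial genes *Cdh1*, *Epcam* and *Esrp1*, the mesenchymal cadherin *Cdh2*, and the EMT transcription factors *Zeb1*, *Zeb2*, *Snai1*, *Snai2* and *Twist1*. Each symbol occurs in every file. PATZ1 is a zinc finger protein of the POZ family that was studied for its place at chromatin boundaries. The groups were WT E14 ESCs, a line known as E14TG2a, and *Patz1* -/- (KO) cells made from that line with CRISPR/Cas9 and a guide RNA carried on the PX459 plasmid. Both genotypes were kept in medium with LIF and 2i, that is the MEK inhibitor PD0325901 and the GSK3 inhibitor CHIR99021. RNA was depleted of ribosomal RNA and sequenced in 3 libraries per genotype. The study describes several KO clones, and the labels do not say which clone or clones gave these libraries. The study calls the libraries of a genotype biological replicates, a term its methods explain for separate differentiations alone, which these ESCs did not undergo. Whether the libraries differ by culture or by clone is not said, and the p-values measure the spread between them.

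E-cadherin, the product of *Cdh1*, joins neighbouring epithelial cells through calcium-dependent contacts, and the catenins tie it to actin inside the cell. In EMT, transcription factors of the SNAIL, ZEB and TWIST families lower *Cdh1* and other epithelial genes, and N-cadherin (*Cdh2*) takes its place, an exchange called the cadherin switch. SNAIL and ZEB proteins bind E-box elements in the promoters of their targets. Mouse ESCs form compact colonies held by E-cadherin, and cells of the embryo exchange it for N-cadherin at gastrulation.

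The libraries of replicates 1 and 2 held 37573923 to 47721070 counts, and those of replicate 3 held 11040756 in WT and 11420268 in KO. The share of *Rn45s*, the ribosomal precursor, was 14.4% and 12.5% in replicate 3, and 1.79% to 3.03% in the others. A value of 3 counts, taken as the floor of detection, corresponded to 1.69 to 8.21 normalized counts per library. Values are normalized by the size factor of each library, and floors cover counting error only, as no molecular identifiers were used. *Patz1* itself fell in KO, from a WT mean of 1888 ± 82.3 to 859 ± 5.01 normalized counts (SD over 3 libraries), with a log2 fold change at -1.14 (adjusted p 1.58e-26, DESeq2). Which exons the remaining reads came from cannot be read from gene counts. The 8 ESC markers, *Pou5f1*, *Sox2*, *Nanog* and *Klf4* among them, were present in every library, with summed normalized counts of 134269 to 138774 in WT and 144553 to 150016 in KO, which did not overlap. None of the 8 passed the test in DESeq2, edgeR or limma-voom, and 1 had an unadjusted p under 0.05 in each. With the replicate number as a block, 3 of the 8 passed, all higher in KO, in a fit where 14.6% of all genes passed and 6.68% were higher.

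Among the 9 genes, *Twist1* rose upon loss of PATZ1, and the other 8 did not pass the test. The call of *Twist1* was lost with edgeR (adjusted p 0.0686) and in 4 of the 6 fits that left out 1 library (adjusted p up to 0.511). The test was the Wald test of DESeq2 over all genes with a Benjamini-Hochberg adjusted p under 0.05, two-sided. It called 1 of the 9 (11.1%), and 7.49% of the 15309 genes with an adjusted p were called. For higher genes alone the share was 2.7% and for lower genes 4.78%. The 1 gene whose 3 KO libraries all lay outside the WT range was also *Twist1*, and 25.6% of all genes tested showed such a separation. The log2 fold change, KO over WT, was above 0 for 7 of the 9 genes and below 0 for *Snai1* and, by a margin that turned with TMM size factors or the replicate block, for *Epcam*. Its median was 0.12 over the 9 genes and 0.01 over all genes tested.

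**Figure D1:**
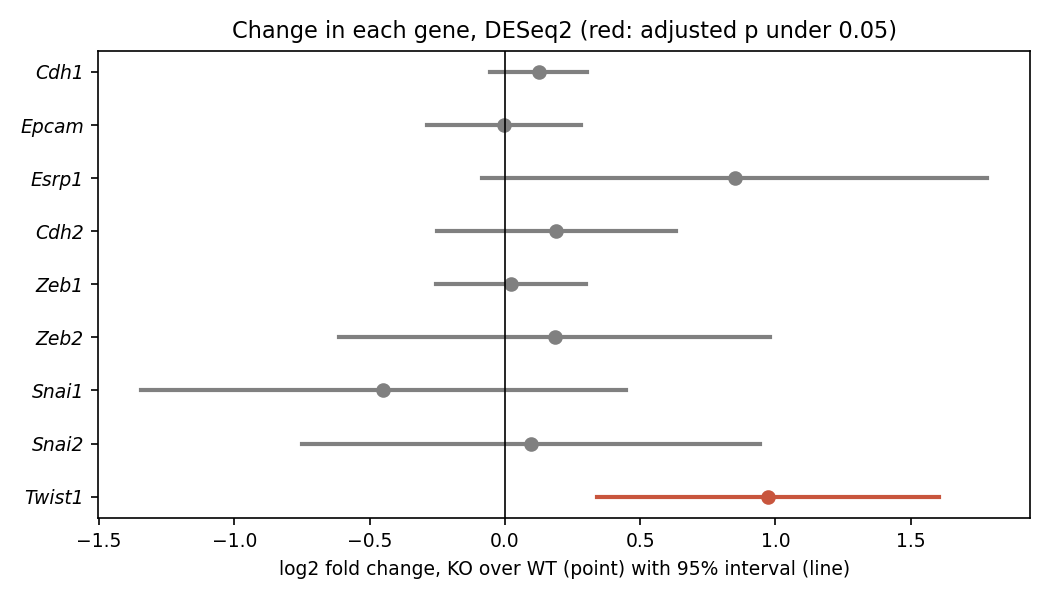
Log2 fold change, KO over WT, of each of the 9 genes (x axis, point) with its 95% interval (line), from DESeq2 on 3 WT and 3 KO libraries. The interval of *Twist1* (red) runs from 0.34 to 1.6, and those of the other 8 genes (grey) include 0.

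Levels were first set side by side within WT, as normalized counts per kb of exon, the scale on which genes of unequal length can be compared. *Cdh1* stood far above the rest with 1800 ± 68.6 per kb (SD, n = 3), followed by *Epcam* with 275 ± 46.6. *Zeb1* had 46.3 ± 5.33, *Twist1* 27.0 ± 6.59 and *Snai1* 16.6 ± 2.33. WT ESCs thus held the epithelial cadherin at the highest level of the 9 and each EMT factor at a level below *Epcam*. The lower end comprised *Cdh2* with 12.8 ± 0.71 per kb, *Snai2* with 11.3 ± 2.96, *Esrp1* with 3.30 ± 1.73 and *Zeb2* with 1.30 ± 0.20. The library ranges of *Cdh2* and *Snai2* overlapped, as did those of *Esrp1* and *Zeb2*, so their order was within the spread. In KO the order of the first pair was the same, with 1963 ± 113 per kb for *Cdh1* and 276 ± 14.0 for *Epcam*. *Twist1* came next with 51.8 ± 15.7, overlapping *Zeb1* with 47.1 ± 4.07. *Cdh2* (14.4 ± 2.14), *Snai2* (12.9 ± 1.29) and *Snai1* (11.8 ± 3.45) each overlapped the next in line, which for *Snai1* was *Esrp1* (6.86 ± 3.59), and *Zeb2* (1.54 ± 0.29) was lowest. With the length of the longest transcript in place of all exons, *Cdh2* stood above *Snai1* in WT, and *Zeb1* stood above *Twist1* in KO without overlap.

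**Figure D2:**
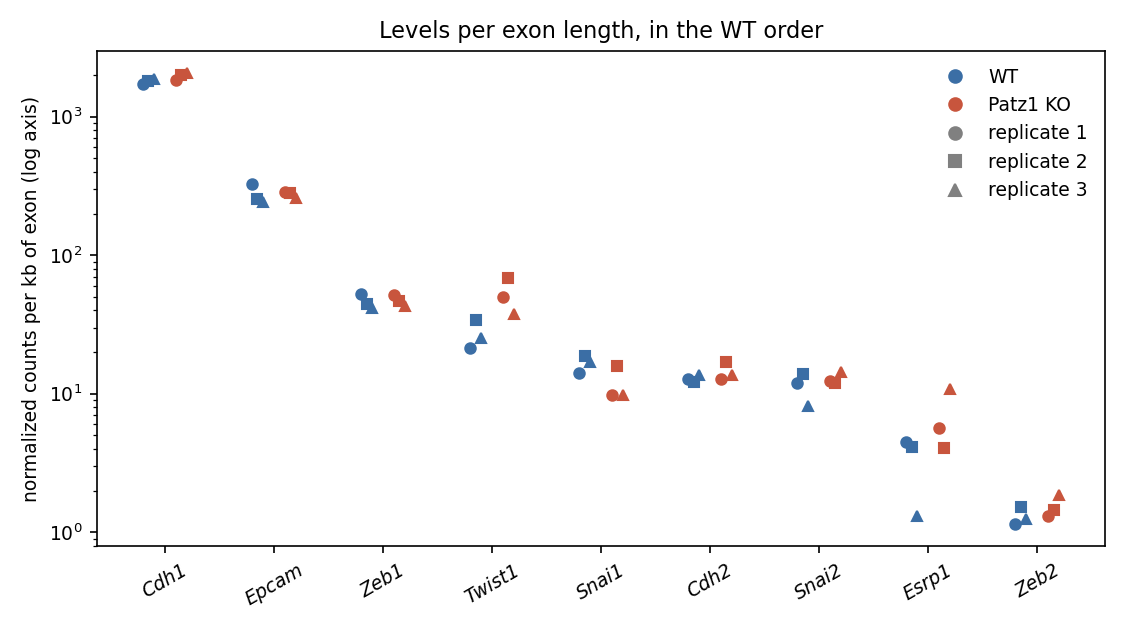
Normalized counts per kb of exon (y axis, log scale) of the 9 genes in the order of their WT means. Each point is 1 library (blue WT, red KO, shape for the replicate number), and the points of *Cdh1* lie near 1800 per kb, those of *Zeb2* near 1.30.

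Of the epithelial genes, *Cdh1* (ENSMUSG00000000303.12, chromosome 8, 106603351 to 106670246, plus strand, GRCm38, protein coding) had 7907, 8266 and 8532 normalized counts in the WT libraries and 8411, 9112 and 9416 in the KO libraries, here and below in the order of the replicate numbers. The lowest KO library lay inside the WT range, while the other KO libraries lay above it. Its log2 fold change was 0.12 (SE 0.09, 95% interval -0.05 to 0.30, adjusted p 0.565, DESeq2). Within each pair of replicate numbers *Cdh1* was higher in KO, with log2 differences of 0.09, 0.14 and 0.14, and with the replicate block its adjusted p was 0.114 (unadjusted p 0.0216, DESeq2). *Epcam*, which encodes a homotypic adhesion protein of epithelial and pluripotent cells (chromosome 17, 87635979 to 87651129, plus strand), had 722, 557 and 534 in WT and 628, 619 and 571 in KO. All KO libraries lay inside the WT range. The difference was within the spread between libraries, with a log2 fold change of -0.0027 (SE 0.14, 95% interval -0.29 to 0.28, adjusted p 0.997, DESeq2). *Esrp1*, a splicing regulator that keeps epithelial exon choices (chromosome 4, 11331933 to 11386783, minus strand), had 28.0, 26.1 and 8.21 in WT and 35.6, 25.5 and 68.7 in KO.

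The replicate 3 libraries were the lowest and the highest of the 6 for *Esrp1*, and the genotypes overlapped in replicates 1 and 2. Behind these values stood 49, 37 and 3 counts in WT and 63, 43 and 26 in KO, so that WT replicate 3 was at the floor of 3 counts. The log2 fold change of *Esrp1* was 0.85 (SE 0.48, 95% interval -0.08 to 1.78, adjusted p 0.369, unadjusted p 0.0742, DESeq2). Without KO replicate 3 it was 0.43, and without replicate 3 of both genotypes 0.17. *Esrp2*, its paralog, averaged 137 ± 18.9 normalized counts in WT against 154 ± 11.2 in KO (SD, n = 3 each), and its log2 fold change was 0.12 (adjusted p 0.869, DESeq2).

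*Cdh2* (chromosome 18, 16588877 to 16809246, minus strand) had 103, 98.2 and 110 normalized counts in WT and 103, 136 and 111 in KO. KO replicate 2 stood above the others, and the remaining KO libraries were close to the WT values. Its log2 fold change was 0.19 (SE 0.23, 95% interval -0.25 to 0.63, adjusted p 0.789, DESeq2). *Cdh3*, which encodes P-cadherin and is the neighbour of *Cdh1* on chromosome 8 at 46.1 kb, averaged 370 ± 50.5 in WT against 382 ± 35.8 in KO (SD, n = 3 each). Its log2 fold change was 0.05 (adjusted p 0.932, DESeq2).

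The balance of both cadherins was read within each library as the ratio of *Cdh1* to *Cdh2* counts, which does not depend on size factors. It was 76.8, 84.2 and 77.9 in the WT libraries and 81.9, 67.1 and 84.8 in the KO libraries. On the log2 scale, with 1 added to each count, the ratio averaged 6.30 ± 0.08 in WT against 6.26 ± 0.17 in KO (SD, n = 3 each), and the KO libraries reached both above and below WT replicates 1 and 3. The KO minus WT difference of -0.04 was smaller than either SD, and within the pairs of replicates 1, 2 and 3 it was 0.09, -0.32 and 0.12. It turned to 0.06 without KO replicate 2 and to 0.0090 without WT replicate 2. Per kb of exon, *Cdh1* exceeded *Cdh2* by a ratio of 140 ± 7.05 in WT and 137 ± 16.8 in KO.

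**Figure D3:**
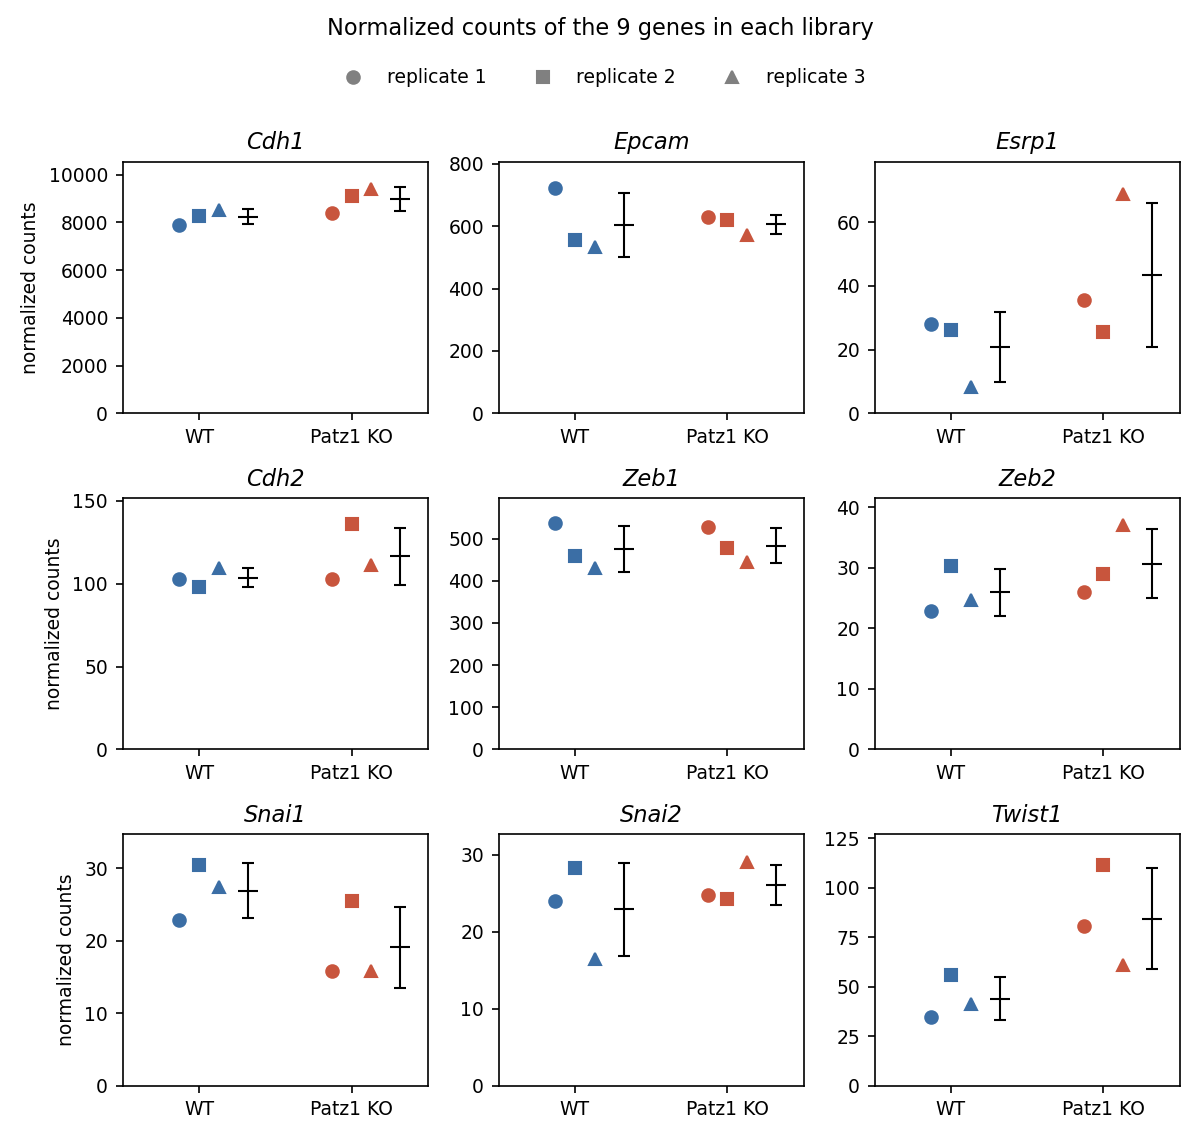
Normalized counts (y axis, linear from 0, a separate scale for each gene) of the 9 genes in the 3 WT (blue) and 3 KO (red) libraries, with shapes for the replicate number and black bars for mean ± SD. For *Twist1* the KO points, from 60.8 to 112, all lie above the WT points, which end at 55.8, and in the other 8 panels the genotypes overlap.

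Of the EMT factors, *Zeb1* and *Zeb2* encode zinc finger homeodomain repressors. *Zeb1* (chromosome 18, 5591860 to 5775467, plus strand) had 536, 459 and 430 normalized counts in WT and 527, 479 and 444 in KO. In both genotypes replicate 1 was the highest, and every KO library lay inside the WT range. Its log2 fold change was 0.02 (SE 0.14, 95% interval -0.26 to 0.30, adjusted p 0.969, DESeq2). *Zeb2* (chromosome 2, 44983632 to 45117395, minus strand) had 22.9, 30.4 and 24.6 in WT and 26.0, 29.1 and 37.0 in KO, with only KO replicate 3 outside the WT range. The log2 fold change of *Zeb2* was 0.18 (SE 0.41, 95% interval -0.61 to 0.98, adjusted p 0.905, DESeq2). Both genes overlap transcripts on the opposite strand, of which 2 had a row in the files, with at most 4 counts summed over the libraries of a genotype. *Esrp1* and *Cdh2* also overlap a transcript of the opposite strand, not analysed here, and are uncertain to that extent because the strand setting of the counting is not known.

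*Snai1* and *Snai2* encode the zinc finger repressors SNAIL and SLUG. *Snai1* (chromosome 2, 167538195 to 167542814, plus strand) had 22.9, 30.4 and 27.4 normalized counts in WT and 15.8, 25.5 and 15.9 in KO. It was lower in KO within each pair of replicate numbers, yet KO replicate 2 lay inside the WT range, and the log2 fold change, -0.45 (SE 0.46, 95% interval -1.35 to 0.45, adjusted p 0.740, DESeq2), did not pass. *Snai2* (chromosome 16, 14705852 to 14709385, plus strand) had 24.0, 28.2 and 16.4 in WT and 24.8, 24.3 and 29.1 in KO, which overlapped. Its log2 fold change was 0.10 (SE 0.43, 95% interval -0.75 to 0.94, adjusted p 0.954, DESeq2).

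The weakest of these genes had the widest intervals. *Esrp1*, *Zeb2*, *Snai1* and *Snai2* had means between 20 and 40 normalized counts, a range in which the median SE of the log2 fold change was 0.44 and the smallest absolute log2 fold change of a called gene was 1.06. In that range 61 of 1175 genes were called (5.19%). These are values of the genes in the range and not a limit of detection for each of the 4. For genes with 50 to 150 normalized counts, where *Cdh2* and *Twist1* stood, the median SE was 0.26 and the smallest called change 0.59. For genes with 400 to 800, where *Epcam* and *Zeb1* stood, the smallest called change was 0.34. For those with 5000 to 12000, where *Cdh1* stood, it was 0.26.

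Since SNAIL and ZEB proteins bind E-boxes with the letters CACCTG, read on the other strand as CAGGTG, the 250 bases before the start of the genes were read from the RefSeq promoter table (build GRCm38.p6), which holds *Epcam*, *Zeb2*, *Snai1* and *Twist1*, 4 of the 9 genes. CACCTG on either strand was present in 17.2% of all 32851 windows of that length. The window of *Epcam* (chr17:87635729-87635978, plus strand) had 2 matches, at 187 to 182 and 19 to 14 bases before the start, and that of *Snai1* (chr2:167537945-167538194, plus strand) had 1, at 126 to 121. They are printed 5′ to 3′ as the epithelial gene and the repressor gene with such a match, with the E-box in capitals. Binding at these matches was not tested.
Epcam: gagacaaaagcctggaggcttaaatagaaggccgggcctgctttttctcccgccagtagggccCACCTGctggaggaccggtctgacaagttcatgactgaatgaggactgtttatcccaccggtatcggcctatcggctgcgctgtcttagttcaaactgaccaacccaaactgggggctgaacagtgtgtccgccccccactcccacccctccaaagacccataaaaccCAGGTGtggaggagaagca
Snai1: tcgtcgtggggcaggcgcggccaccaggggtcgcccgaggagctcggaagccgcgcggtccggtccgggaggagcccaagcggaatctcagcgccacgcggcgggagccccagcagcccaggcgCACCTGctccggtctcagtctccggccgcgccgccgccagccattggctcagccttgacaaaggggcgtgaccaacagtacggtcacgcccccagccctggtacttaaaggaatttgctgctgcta
Neither gene passed the test between the genotypes. The windows of *Twist1* and *Zeb2* did not hold these letters.

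*Twist1* encodes a basic helix-loop-helix factor that acts in cranial mesenchyme and promotes EMT. It lies on chromosome 12, 33957671 to 33959829 (plus strand, GRCm38, protein coding). The WT libraries held 34.9, 55.8 and 41.1 normalized counts and the KO libraries 80.7, 112 and 60.8, from 61, 79 and 15 counts in WT and 143, 188 and 23 in KO. Every KO library was above every WT library, and the nearest were KO replicate 3 and WT replicate 2. The mean rose from 43.9 ± 10.7 to 84.3 ± 25.6 (SD, n = 3 each), 1.92-fold, with a log2 fold change of 0.97 (SE 0.32, 95% interval 0.34 to 1.6, adjusted p 0.0378, DESeq2). Within the pairs of replicates 1, 2 and 3 the log2 difference was 1.19, 0.99 and 0.55. Of the 414 genes that were higher in KO, 93 had a larger log2 fold change than *Twist1* and 377 had a smaller adjusted p.

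The call of *Twist1* was near the threshold. The adjusted p was 0.0457 with limma-voom, 0.0157 with the replicate block, 0.0236 without replicate 3 of both genotypes and 0.0686 with edgeR, in which none of the 9 genes passed and 1 had an unadjusted p under 0.05. Leaving out KO replicate 1 gave an adjusted p of 0.186, KO replicate 2 gave 0.511, WT replicate 1 gave 0.372 and WT replicate 3 gave 0.0626. It was 0.0169 when KO replicate 3 was left out and 0.0482 when WT replicate 2 was. The log2 fold change stayed between 0.71 and 1.22 in these 6 fits.

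**Figure D4:**
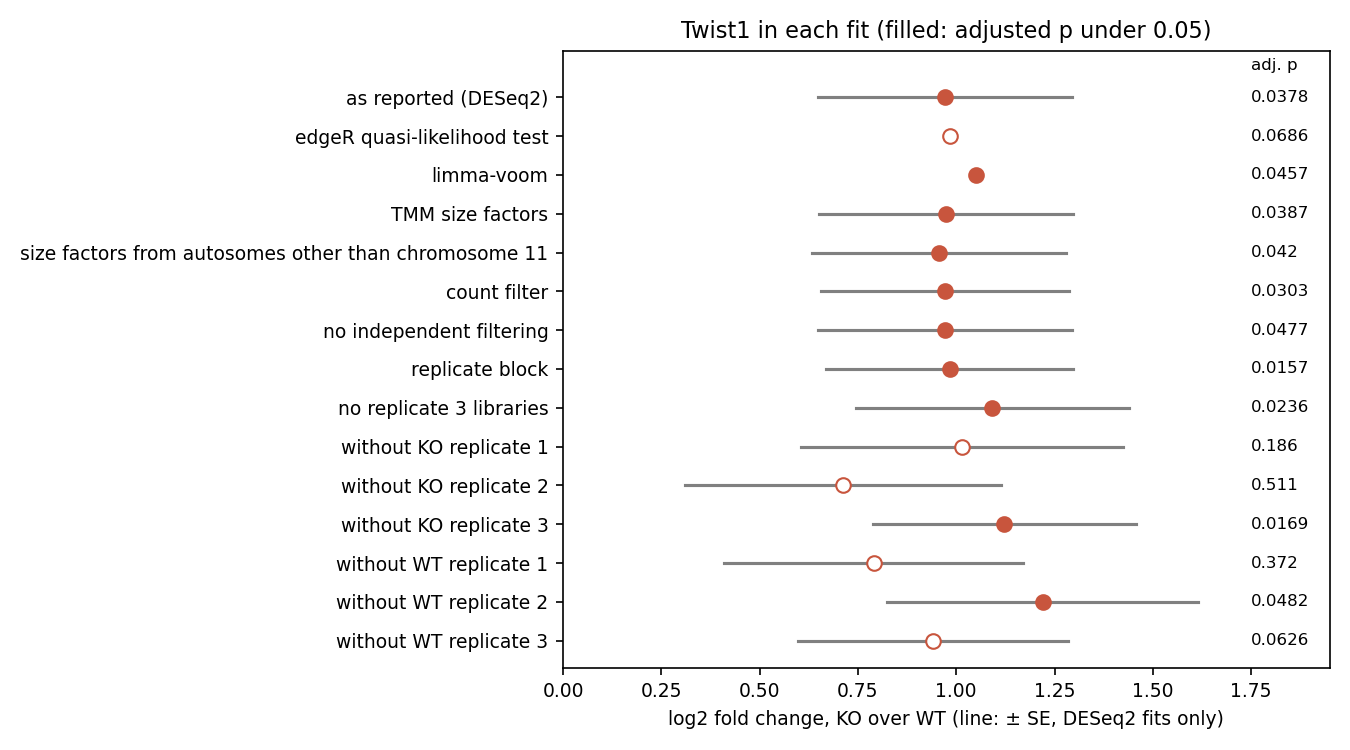
Log2 fold change of *Twist1*, KO over WT (x axis), in the DESeq2 fit as reported and in each alternative fit (y axis), with grey lines for ± SE where DESeq2 was used and the adjusted p at the right. Filled points have an adjusted p under 0.05, and the 5 open points are edgeR and the fits without KO replicate 1, KO replicate 2, WT replicate 1 or WT replicate 3.

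The promoter window of *Twist1*, the gene that rose, is shown with a G-rich element in capitals, GGGAGGG, read on the other strand as CCCTCCC, the kind of sequence bound by MAZ, a relative of PATZ1. The window (chr12:33957421-33957670, plus strand, GRCm38.p6, RefSeq) held 2 matches, at 168 to 162 and 156 to 150 bases before the start, and 19.7% of all windows held at least 1.
Twist1: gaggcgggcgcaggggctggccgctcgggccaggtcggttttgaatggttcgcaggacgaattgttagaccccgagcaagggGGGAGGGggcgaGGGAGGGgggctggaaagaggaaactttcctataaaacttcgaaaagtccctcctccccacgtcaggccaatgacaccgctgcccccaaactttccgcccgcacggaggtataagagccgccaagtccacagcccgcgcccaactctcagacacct
The 4 windows of *Zeb2*, which did not pass the test, also held GGGAGGG.

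The genes beside *Twist1* did not pass the test or had no count. *Ferd3l*, at 28.4 kb, had no count in any library. *Hdac9*, at 87.8 kb on the other side, averaged 6.76 ± 2.07 normalized counts in WT against 5.65 ± 1.91 in KO (SD, n = 3 each, adjusted p 0.931, DESeq2). *Twistnb*, at 516 kb, had 1713 ± 114 and 1779 ± 87.9 (adjusted p 0.882).

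The genes most like each member over the 6 libraries were sought among 11523 genes by the root-mean-square difference of centred log2 values. For *Twist1* they were *Armcx6*, *Mdfi* and *Pgk1*, at 0.17, 0.17 and 0.18, where the median over all genes was 0.56. *Armcx6* and *Pgk1* lie on X, where the median log2 fold change was 0.16 and 23.7% of the genes tested were called, while *Mdfi* lies on chromosome 17. For *Cdh1* they were *Ccdc71*, *1700020I14Rik* and *Ndufb7*, for *Epcam* *Mrps31*, *Nup43* and *Mrpl48*, for *Cdh2* *Sh3yl1*, *Bcl2l14* and *Hibch*, and for *Zeb1* *Faf1*, *Rrm1* and *Tacc3*, all at 0.06 or less. These are descriptions over 6 libraries, 3 of each genotype.

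Around these genes, lists of related genes were counted in the same fit. Of the junction genes, which build tight junctions and desmosomes, 4 of 25 tested were called (16%, against 7.49% of all genes), and their median log2 fold change was 0.03. *Pkp2*, a desmosomal plakophilin, fell from a mean of 1706 ± 133 to 1236 ± 74.3 normalized counts (SD over 3 libraries), and *Mllt4*, the symbol in the files for afadin, which links nectins to actin, from 1916 ± 28.7 to 1414 ± 46.3. Their log2 fold changes were -0.47 and -0.44 (adjusted p 0.000654 and 0.000181, DESeq2), and both passed in each of the 6 fits that left out 1 library. *Jup*, which encodes plakoglobin, fell by 0.31 on the log2 scale (adjusted p 0.0157). It lies on chromosome 11, where the median log2 fold change was -0.27 and 21.3% of the genes tested were called, and the part of that shift in its fall was not tested. *Dsp*, which encodes desmoplakin, had 209, 304 and 233 in WT and 284, 500.0 and 494 in KO, overlapping, and rose by the test (log2 fold change 0.76, adjusted p 0.0118). The adjusted p of *Dsp* was 0.102 with edgeR and up to 0.223 where KO replicate 2, KO replicate 3 or WT replicate 1 was left out. *Dsp* also missed the threshold with limma-voom and without the replicate 3 libraries. The adjusted p of *Jup* was up to 0.218 where replicate 1 or 2 of either genotype was. With the replicate block 7 junction genes passed, 3 higher and 4 lower, while 14.6% of all genes passed in that fit (6.68% higher and 7.95% lower, against 2.7% and 4.78% without the block).

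Among the other cadherins and the catenins, 1 of 12 tested was called (8.33%, against 7.49% of all genes), namely *Vcl*, which encodes the actin linker vinculin. It rose from 2031 ± 97.0 to 2550 ± 84.6 normalized counts (log2 fold change 0.33, adjusted p 0.00991, DESeq2), with an adjusted p up to 0.157 where replicate 1 or 2 of either genotype was left out. Of the epithelial regulators and surface proteases, 1 of 22 tested was called (4.55%), the surface glycoprotein gene *Cd24a*. It had 751 ± 116 in WT and 1121 ± 233 in KO (log2 fold change 0.58, adjusted p 0.0120), but an adjusted p of 0.0849 with edgeR and up to 0.227 without KO replicate 2 or 3 or WT replicate 1, and it lost its call with limma-voom and without both replicate 3 libraries too. With the replicate block, under which 14.6% of all genes passed, 2 of this list did, the second being *Llgl2*, with a log2 fold change of -0.24. *Llgl2* lies on chromosome 11, where the median with the block was -0.27 and 40.6% of the genes tested passed. The median log2 fold changes of these lists were 0.05 and 0.12.

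Among 11 tested transcription factors of EMT outside the 9 genes and the inhibitors of their bHLH class, *Id1* was the 1 called (9.09%, against 7.49% of all genes). *Id1*, which encodes a dominant-negative HLH protein, rose from a mean of 415 ± 78.4 to 655 ± 58.7 normalized counts (SD over 3 libraries), with a log2 fold change at 0.68 (adjusted p 0.000488, DESeq2). Its 3 KO libraries, with 591, 670 and 706, lay above the 3 WT libraries, with 343, 405 and 498, and it passed in each of the 6 fits that left out 1 library. With the replicate block (14.6% of all genes) *Id3* passed as well, and was lower.

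Of 24 mesenchymal genes tested, 4 were called (16.7%, against 7.49% of all genes), all higher in KO, a direction in which 2.7% of all genes were called, and the median of the list was 0.03. The 4 were *Tagln*, *Tpm2*, *Acta2* and *Cnn1*, which encode proteins of the actin cytoskeleton of smooth muscle and contractile cells. *Acta2* and *Cnn1* had fewer than 50 normalized counts on average and are named after their values were seen. *Tagln* had 21.7, 27.5 and 49.3 in WT and 114, 62.3 and 129 in KO, which gave 1.73 as the log2 fold change (SE 0.36, adjusted p 0.00011, DESeq2). *Acta2* rose from a mean of 8.26 ± 3.71 to 42.1 ± 16.7, on 8, 17 and 3 counts in WT against 44, 73 and 22 in KO, and its log2 fold change was 2.31 (SE 0.54, adjusted p 0.000698), with WT replicate 3 at the floor of 3 counts. *Tpm2* rose from 248 ± 28.4 to 402 ± 4.62 (log2 fold change 0.67, adjusted p 0.000267) and *Cnn1* from 9.03 ± 3.87 to 35.1 ± 7.70 (log2 fold change 1.82, adjusted p 0.00717), on 23, 12 and 2 counts in WT and 74, 45 and 14 in KO, so that WT replicate 3 was under the floor. For each of the 4, no KO library overlapped WT. Of all genes tested, 11.8% showed such a separation with KO higher, and the 4 were picked by a test on the same libraries. *Cnn1* lost its call without KO replicate 1 or WT replicate 2 (adjusted p up to 0.163), and the others passed in each of the 6 fits that left out 1 library.

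*Vim*, which encodes the intermediate filament vimentin, averaged 4524 ± 466 normalized counts in WT against 4406 ± 402 in KO (log2 fold change -0.04, adjusted p 0.934, DESeq2), which overlapped. *Fn1*, which encodes fibronectin, had 8615, 8443 and 9449 in WT and 6943, 7347 and 8388 in KO. Its KO libraries all lay below the WT libraries, and its log2 fold change of -0.23 had an adjusted p of 0.205, or 0.000823 with the replicate block. With that block 8 mesenchymal genes passed, 5 higher and 3 lower, where 6.68% and 7.95% of all genes were higher and lower. *Fn1*, *Itgav* and *Itgb3*, the last on chromosome 11, were the lower ones.

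Markers of other cell types were counted beside *Twist1* and the mesenchymal genes. The sum of 8 fibroblast or feeder cell markers was 233 to 261 normalized counts in WT and 277 to 291 in KO, which did not overlap. Of the 4 tested, 1 was called (25%, against 7.49% of all genes, 2.7% higher and 4.78% lower). It was *Thy1*, which rose from 72.5 to 130 (adjusted p 0.0147, DESeq2). *Thy1* lost its call without the replicate 3 libraries and in 5 of the 6 fits that left out 1 library, all but that without WT replicate 3 (adjusted p up to 0.248). Without *Thy1* the sum of the list was 153 to 200.2 in WT and 122 to 171 in KO, and the median log2 fold change of the 4 markers tested was -0.20. *Col1a1* had 11.5 and 9.16 and *Col3a1*, *Dcn* and *Postn* had at most 3 counts in every library. Sums of 8 primitive streak and mesoderm markers overlapped (988 to 1262 in WT, 762 to 1094 in KO), and 1 of 6 tested was called (16.7%). This was *Kdr*, lower in KO, which lost its call where replicate 1 or 2 of either genotype was left out (adjusted p up to 0.238). Of 8 primitive endoderm markers, whose sums overlapped (145 to 205 and 186 to 233), 7 were tested and 1 was called (14.3%). This was *Dab2*, which rose, though not called without WT replicate 1 or WT replicate 2 (adjusted p up to 0.0770). *Foxa2* was at 0 in WT and had 22, 7 and 2 counts in KO, with no adjusted p under independent filtering, and without that filtering 2 of the 8 were called. The log2 fold change was below 0 for 5 of the 7 endoderm markers tested, with a median of -0.12. Sums of the neural markers overlapped too (1224 to 1517 and 1221 to 1461). The 8 trophoblast markers summed to 64.6 to 93.1 in WT and 97.8 to 133 in KO, which did not overlap, and *Tpbpa* was at 0. All 3 trophoblast markers tested had a log2 fold change above 0, with a median of 0.39. Of these 3 and of the 2 tested in edgeR and limma-voom none was called (each tool gave 1 of them an unadjusted p under 0.05), and the fit without WT replicate 3 called 1, higher. The part of other cells in the rise of *Twist1* and the 4 mesenchymal genes was not tested, and in bulk RNA more cells of a type and more RNA per cell cannot be told apart.

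**Figure D5:**
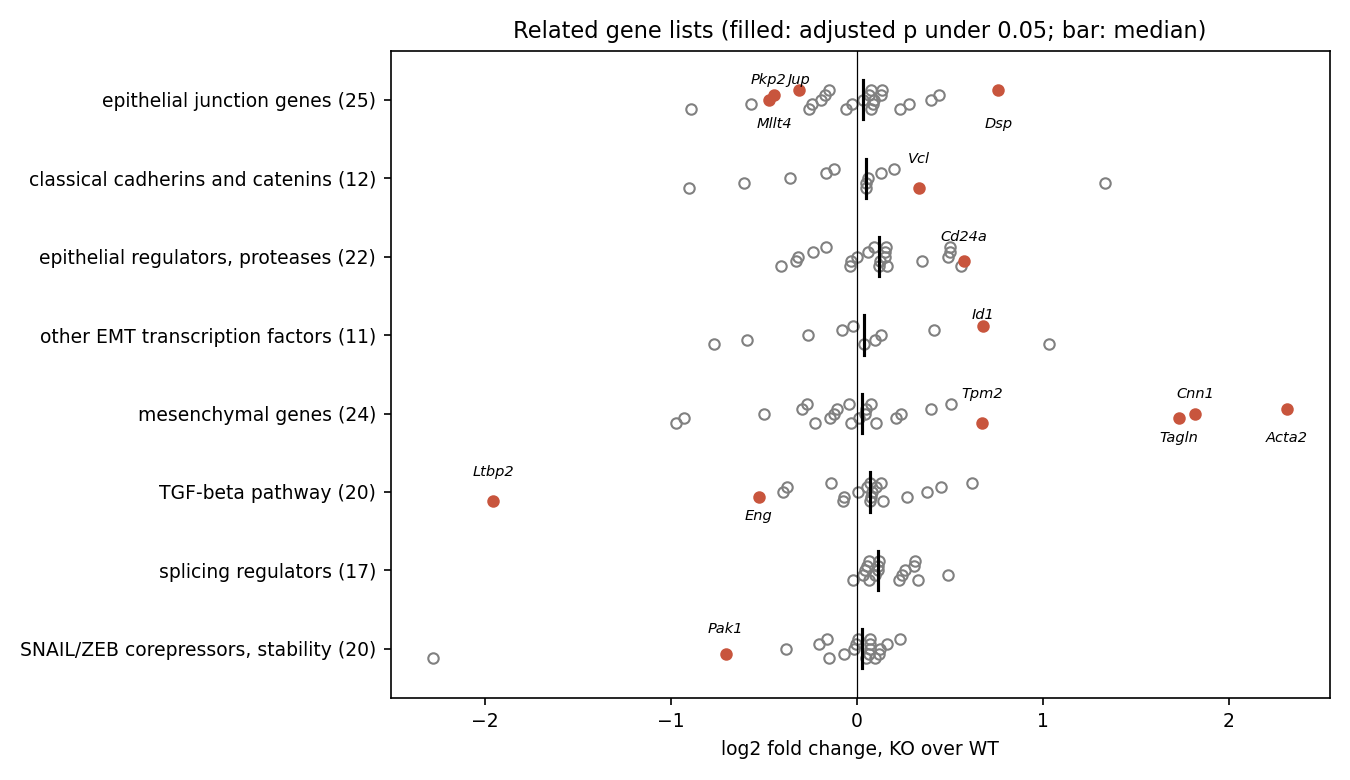
Log2 fold change, KO over WT (x axis), of the tested genes in 8 lists related to the cadherin switch (y axis, number tested in brackets), each circle 1 gene. Filled circles with a name have an adjusted p under 0.05 in DESeq2, black bars are list medians, which lie between 0.03 and 0.12, and the called mesenchymal genes lie at the right.

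Of 20 tested ligands, receptors and SMADs of TGF-beta signalling, 2 were called (10%, against 7.49% of all genes), both lower (4.78% of all genes). *Eng*, the co-receptor endoglin, fell from 372 ± 44.3 to 259 ± 22.2 normalized counts (log2 fold change -0.53, adjusted p 0.0186, DESeq2), with an adjusted p up to 0.249 without KO replicate 1, KO replicate 2 or WT replicate 2. *Ltbp2*, a latent TGF-beta binding protein gene named after its values were seen, fell from 21.4 ± 4.86 to 5.10 ± 2.65 (log2 fold change -1.95, adjusted p 0.0307), on 38, 37 and 6 counts in WT and 14, 8 and 1 in KO, so that KO replicate 3 was under the floor of 3 counts. It lost its call in 5 of the 6 fits that left out 1 library (adjusted p up to 0.30), all but the fit without WT replicate 3. The median of this list was 0.07.

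Splicing regulators tied to the epithelial or mesenchymal state had none called among 17 genes with an adjusted p in DESeq2 or among the 16 tested in edgeR and in limma-voom. An unadjusted p under 0.05 was given to 2 of 18 genes by DESeq2, 2 of 16 by edgeR and 3 of 16 by limma-voom. With the replicate block 2 passed, *Ptbp2* and *Celf1*, both higher, beside 14.6% of all genes. Of 20 corepressors and stability factors of SNAIL and ZEB, 1 was called (5%, against 7.49% of all genes), *Pak1*, a kinase that phosphorylates SNAIL. It fell from 760 ± 135 to 467 ± 38.3 normalized counts (log2 fold change -0.70, adjusted p 0.000155, DESeq2) and passed in each of the 6 fits that left out 1 library. With the block 4 genes of this list passed, 1 higher and 3 lower. In that fit 14.6% of all genes passed, 6.68% higher and 7.95% lower. The medians of both lists were 0.11 and 0.03.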

How the data were processed

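The authors deposited raw read counts per gene symbol, 1 file per library, with no normalization. Per the labels the libraries were stranded, and the submitters' processing notes name mm10, TopHat2 2.1.1, Bowtie2 2.3.1.0, featureCounts 1.6.2 and DESeq2, with no roles. The methods of the study name Bowtie2, in another version, for mapping to mm10, and DESeq2 for differential expression. The annotation, the strand setting of the counting and the handling of duplicate or multi-mapped reads are not given in the sources used here, so genes that overlap another gene are uncertain.

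Samples were grouped by their titles, 3 WT and 3 KO. Counts were tested with the Wald test of DESeq2 1.42.0, as in the study, on genotype alone, with median-of-ratios size factors, default independent filtering, no shrinkage and Benjamini-Hochberg adjustment over all genes (threshold 0.05). Normalized counts are given as mean ± SD. Alternatives were edgeR 4.0.16 (quasi-likelihood), limma-voom (limma 3.58.1), TMM size factors, size factors from autosomes other than chromosome 11, a filter of 10 counts in 3 libraries, no independent filtering, the replicate block, leaving out each library, leaving out replicate 3, and an adjusted p under 0.01. Positions and exon lengths came from GENCODE M21 on GRCm38, the build also called mm10, and a position was found for 23037 symbols.

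Replicate numbers paired the libraries: over 11524 genes, deviations from the genotype means correlated at 0.469, 0.619 and 0.684 for same-numbered libraries. The evidence for the pairing is those correlations together with the titles. Every pair of libraries differed by more than counting noise (chi-square divided by its degrees of freedom of at least 8.80).

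The 9 genes, the lists and the markers were chosen with earlier results of these data known. Genes named are the 9, *Patz1*, *Cdh3*, *Esrp2*, *Vim*, *Fn1*, the called genes of a list with a mean of at least 50 in the higher genotype (at most 6 by absolute change) and the 3 genes most like each member with a mean of at least 50. Others are said to be named after their values were seen, and genes called with the replicate block alone and single markers were also chosen in that way. The genes beside *Twist1* are outside this rule and were named by position. Counts were also simulated for 19404 genes, with a dispersion set at 0.02 and no replicate effect. The 200 genes changed in them all had means of at least 50. DESeq2 recovered 92% of genes changed by a log2 of 1 and 100% of those changed by 2, with 6.80% false calls. Recovery at lower means, where *Esrp1*, *Zeb2*, *Snai1* and *Snai2* stood, was not simulated.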

Additional observations from a re-analysis of the deposited data

How the results depend on the processing

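Over 15 alternatives each, *Cdh1*, *Cdh2*, *Esrp1*, *Zeb2* and *Snai1* kept their direction and their side of the threshold, with log2 fold changes of 0.093 to 0.17, 0.046 to 0.29, 0.43 to 1.15, 0.077 to 0.34 and -0.76 to -0.29 when 1 library was left out. The lowest value of *Cdh2* was without KO replicate 2. *Epcam* turned to 0.00018 with TMM size factors and 0.0051 with the replicate block, and *Snai2* to -0.086 without the replicate 3 libraries. Leaving out 1 library gave log2 fold changes of -0.075 to 0.15 for *Epcam*, -0.047 to 0.12 for *Zeb1*, -0.031 to 0.28 for *Snai2* and 0.71 to 1.22 for *Twist1*, none of them past the threshold but those of *Twist1* without KO replicate 3 or WT replicate 2. *Twist1* missed the threshold with edgeR (0.99) and at an adjusted p under 0.01 (0.97). Of the 9 genes, 0 were called in either of these settings, and 0 to 1 with 1 library left out. The replicate block changed no call among the 9 genes. Over all genes 2131 (14.6%) were called with the block, 719 at an adjusted p under 0.01 and 583 to 1341 with 1 library left out, the lowest without KO replicate 1.

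Calls per list with the replicate block were 7 junction genes, 2 epithelial regulators, 2 EMT factors, 8 mesenchymal genes, 2 splicing regulators and 4 corepressors. Without the replicate 3 libraries 1332 genes were called over all. Calls per list in that fit were 4 junction genes, 1 cadherin or catenin gene, 0 epithelial regulators, 1 EMT factor and 6 mesenchymal genes. They also included 1 TGF-beta gene, 1 splicing regulator and 2 corepressors. At an adjusted p under 0.01 they were 2 junction genes, 0 epithelial regulators and 0 TGF-beta genes, and epithelial regulators also had 0 with edgeR and with limma-voom. With 1 library left out the ranges were 2 to 6 junction genes, 0 to 1 cadherins and catenins, 0 to 1 epithelial regulators, 1 to 2 EMT factors, 3 to 7 mesenchymal genes, 0 to 2 TGF-beta genes, 0 to 2 splicing regulators and 1 to 2 corepressors. The difference in the log2 ratio of *Cdh1* to *Cdh2* was 0.092, -0.32 and 0.12 in the pairs of replicates 1, 2 and 3, and -0.092 to 0.064 with 1 library left out. With the longest transcript, 2 genes took another rank by level per kb in WT and 2 in KO. The causes of these shifts were not tested.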

Other observations

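Because *Tagln*, *Acta2*, *Cnn1* and *Tpm2* rose, a further list of 14 genes of smooth muscle contraction and of SRF and its cofactors was counted, chosen after the data were seen. Of 12 tested, 4 were called by DESeq2, 3 higher and 1 lower (over all genes, 7.49% were called, 2.7% higher and 4.78% lower), and the median log2 fold change was 0.01. *Myl9*, a myosin light chain gene, rose from a mean of 58.7 to one of 176 normalized counts over 3 libraries each (adjusted p 4.32e-07), *Cnn2* from 769 to 1316 (adjusted p 0.000108) and *Tagln2* from 2359 to 3170 (adjusted p 0.00996). *Des*, which encodes the muscle intermediate filament desmin, fell from 268 to 148 (adjusted p 0.000148). *Srf* did not pass (adjusted p 0.135). *Myl9*, *Des* and *Cnn2* passed in each of the 6 fits that left out 1 library, but *Cnn2* did not pass without the replicate 3 libraries, and *Tagln2* lost its call in 4 of the 6 fits, without KO replicate 2 or 3 or WT replicate 1 or 2 (adjusted p up to 0.165), and with edgeR and limma-voom.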
